A study of Homo sapiens with 9 samples.

Results

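The 10 genes described here, PSMB8, PSMB9, PSMB10, TAP1, TAP2, TAPBP, ERAP1, ERAP2, B2M and NLRC5, encode the machinery that makes, moves and loads the peptides of MHC class I molecules, and the main regulator of its transcription. They were taken by gene symbol from the array annotation, and each had 1 row among the 17705 named rows of 20893 tested. RNA of the cell line L-1236, derived from a Hodgkin lymphoma, was measured on 9 human Clariom S arrays in 3 groups of 3. Clone g2_1 carried the lentiCRISPR v2 vector (spelled lentiCRIPSPR_v2 in the labels), which delivers Cas9 with a guide, and its guide was directed at the second exon of LTA, the gene of lymphotoxin alpha, a secreted cytokine of the tumour necrosis factor family. Clone g3_4 carried the same vector with a guide against the fourth exon of LTA. The control cells carried v2, with no guide named, and are titled wild type. Each knockout group was 1 clone grown from a single cell, and whether the control was one as well is not stated. Conditioned medium of L-1236 had sustained both clones until the last 72 h, which all cells spent in normal medium, and the earlier medium of the control is not stated. A difference between a clone and the control therefore cannot be told apart from a difference between clones or in their earlier medium. No label ties the arrays to separate cultures, so the p-values speak only of the spread between these arrays, which may be technical.

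MHC class I molecules carry short peptides of the cell's own proteins to its surface, where cytotoxic T cells inspect them. The peptides are cut by the proteasome, whose catalytic subunits are exchanged for PSMB8, PSMB9 and PSMB10 under interferon, pumped into the endoplasmic reticulum by the transporter TAP1 with TAP2, trimmed there by ERAP1 and ERAP2, and loaded with the help of tapasin (TAPBP) onto a heavy chain bound to beta-2 microglobulin (B2M). NLRC5 drives transcription of many of these genes, and so do interferon and NF-kB signals through IRF, STAT and kappaB motifs in their promoters. Hodgkin lymphoma is known for lasting NF-kB and JAK-STAT activity and for frequent loss of class I on the tumour cells.

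Promoter windows show how closely these genes sit together and which of the known motifs their letters hold. RefSeq windows of GRCh38.p14, from 250 bases before to 50 bases after a transcript's first base, were matched for 9 of the 10 genes, in 13 windows, and NLRC5 was not matched. The windows below belong to the 4 genes that fell in both clones, and that of B2M is shown as one whose gene did not pass the test. Capitals mark matches, on either strand, to an interferon response type motif (GAAA, any 2 bases, GAAA), a kappaB type motif (GGG, any 3 bases, TTCC) or a STAT type motif (TTC, any 3 bases, GAA), and adjoining matches may overlap.
TAP1 promoter, GRCh38.p14 chr6:32853655-32853954, minus strand: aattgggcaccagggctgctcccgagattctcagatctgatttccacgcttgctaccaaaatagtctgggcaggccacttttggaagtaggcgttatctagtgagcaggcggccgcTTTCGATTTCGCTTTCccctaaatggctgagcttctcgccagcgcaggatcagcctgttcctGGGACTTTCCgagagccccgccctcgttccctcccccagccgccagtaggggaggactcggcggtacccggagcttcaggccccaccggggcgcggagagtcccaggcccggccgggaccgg
PSMB9 promoter, GRCh38.p14 chr6:32853942-32854241, plus strand: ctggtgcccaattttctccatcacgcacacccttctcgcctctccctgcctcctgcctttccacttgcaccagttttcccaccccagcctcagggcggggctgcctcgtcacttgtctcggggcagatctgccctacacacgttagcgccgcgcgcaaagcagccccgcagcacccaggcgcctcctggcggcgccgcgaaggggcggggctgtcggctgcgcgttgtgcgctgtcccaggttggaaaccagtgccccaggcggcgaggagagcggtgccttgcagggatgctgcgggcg
TAPBP promoter, GRCh38.p14 chr6:33314029-33314328, minus strand: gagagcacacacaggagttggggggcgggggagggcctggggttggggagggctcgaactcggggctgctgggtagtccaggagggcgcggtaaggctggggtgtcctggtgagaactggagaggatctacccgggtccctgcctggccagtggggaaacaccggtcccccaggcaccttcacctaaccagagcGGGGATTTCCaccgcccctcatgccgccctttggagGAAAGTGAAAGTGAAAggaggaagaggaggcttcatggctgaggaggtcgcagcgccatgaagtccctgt
ERAP2 promoter, GRCh38.p14 chr5:96876250-96876549, plus strand: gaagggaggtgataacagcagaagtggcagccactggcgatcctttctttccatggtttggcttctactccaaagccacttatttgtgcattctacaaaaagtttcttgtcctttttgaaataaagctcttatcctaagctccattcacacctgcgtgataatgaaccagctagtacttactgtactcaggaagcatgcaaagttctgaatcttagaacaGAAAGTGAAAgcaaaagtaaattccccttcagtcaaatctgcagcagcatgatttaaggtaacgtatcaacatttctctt
B2M promoter, GRCh38.p14 chr15:44711267-44711566, plus strand: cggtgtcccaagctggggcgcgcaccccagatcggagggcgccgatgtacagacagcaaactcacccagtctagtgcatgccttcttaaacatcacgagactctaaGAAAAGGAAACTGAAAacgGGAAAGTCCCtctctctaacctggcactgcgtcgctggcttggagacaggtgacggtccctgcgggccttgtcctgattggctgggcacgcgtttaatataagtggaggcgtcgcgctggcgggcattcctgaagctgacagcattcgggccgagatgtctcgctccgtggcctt

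TAP1 and PSMB9 are read away from each other, from first bases that lie 488 bases apart. The TAP1 window holds 2 overlapping interferon type matches, TTTCGATTTC and TTTCGCTTTC, at -134 to -125 and -128 to -119 from the first base, and the kappaB type match GGGACTTTCC at -72 to -63. TAPBP holds GGGGATTTCC at -56 to -47 and, closer to the start, GAAAGTGAAA at -20 to -11 and again at -14 to -5. ERAP2 has 2 annotated starts 516 bases apart, and the downstream window is printed because it holds a match, GAAAGTGAAA at -30 to -21, while these letters are not in the upstream one. The B2M window has GAAAAGGAAA and GAAACTGAAA, which overlap, at -144 to -135 and -138 to -129, and the kappaB type match GGAAAGTCCC at -125 to -116. In the PSMB9 window none of the 3 motifs was found. That window covers only 250 of the 488 bases between the first bases of PSMB9 and TAP1. The matches at -134 to -119 and -72 to -63 of TAP1 lie in the part it leaves out. Of the 9 genes with a window, 8 had an interferon type match in at least 1 window, 3 a kappaB type match (TAP1, TAPBP and B2M) and 2 a STAT type match (PSMB8 and a second window of TAP1). Over all 35116 windows of the table, 3.57% held the interferon type, 6.52% the kappaB type and 7.66% the STAT type. These shares are per window, while the counts before them are per gene over all its windows, so the units differ. A match of letters is not a bound site, and binding was not measured.

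The deposited values are log2 signals, so 1 unit is a doubling, and no detection flags came with them. LTA itself had 7.97, 7.53 and 7.11 on the arrays of g2_1 and 6.94, 7.25 and 6.61 on those of g3_4, against 11.58, 11.07 and 11.08 in the control. It was lower on all 6 knockout arrays and fell by 3.71 in g2_1 and by 4.31 in g3_4 on the log2 scale. The labelled cell type was checked against markers of Hodgkin and Reed-Sternberg cells: IRF4 lay between 11.76 and 12.05 on the 9 arrays, and TNFRSF8, which encodes CD30, rose in both clones by 0.74 on average, its lowest value on any array being 10.91. GATA3 fell by 1.46. CD70 differed between the clones, with 1.41 in g2_1 (adjusted p of 0.00431 in limma) and -0.94 in g3_4 (0.0358), and IRF4, FUT4 and CCL17 were not called in both clones, with averaged differences of 0.17, -0.37 and -0.95. CCL17 was called lower in both clones without control array 1 or without control array 2. Of the 6 markers 1 was called lower and 2 higher in g2_1, and 3 lower and 1 higher in g3_4. Lower calls made up 8.06% of all rows in g2_1 and 8.16% in g3_4. The mean of the 6 was 9.46 to 9.58 on arrays of g2_1, 8.97 to 9.10 in g3_4 and 9.46 to 9.685 in the control. The T cell receptor genes CD3D, CD3E and CD3G, which this lineage should lack, ranged from 3.89 to 4.98, while CD2, the 1 of 5 genes on the T cell list that passed, rose by 1.55. The mean of that list was 5.83 to 5.86 on arrays of g2_1, 5.77 to 5.92 in g3_4 and 5.36 to 5.70 in the control, and its part in the results was not tested. Of 4 B cell genes, a class that Hodgkin lines mostly lose, PAX5 fell by 0.81, and MS4A1, which encodes CD20, lay between 4.22 and 4.56. The mean of these 4 was 5.89 to 5.97 on arrays of g2_1, 5.99 to 6.08 in g3_4 and 6.165 to 6.345 in the control. Of the myeloid and fibroblast lists 0 of 4 and 0 of 5 genes were called in either clone by limma, and 0 of each had an unadjusted p under 0.05. The median of tested rows was 6.15 to 6.19 on knockout arrays and 6.27 to 6.29 on control arrays.

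Of the 10 peptide processing genes, 4 fell in both clones: ERAP2, PSMB9, TAP1 and TAPBP, and 0 rose in limma's test. At an unadjusted p under 0.05 in both clones 5 were lower and 1 higher. For this and every other count at an unadjusted p, the share of all rows at that threshold was not computed. A gene was called at an adjusted p under 0.05 in limma's moderated test with Benjamini-Hochberg adjustment over all 20893 rows, and it rose or fell where both clones were called with the same sign. Over all tested rows 6.97% fell in both clones and 4.48% rose, and the 4 of 10 is read beside that background, with no test of the list. Counts called in both clones for the lists below stand beside the same shares. The clones share the 3 control arrays, so their values against control are not independent of each other. In g2_1 against control 4 of the 10 were called lower, where 8.06% of all rows were, and in g3_4 the same 4, where 8.16% were. For the average of both clones the count was again 4, beside 9.83% of all rows. The median log2 fold change of the 10 genes, both clones averaged against control, was -0.42, and -0.35 without ERAP2, beside 0.035 over all tested rows.

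Array by array, the knockout values of those 4 genes lay below every control value. The same was true of 10.6% of all rows. For B2M and ERAP1 the 6 knockout arrays lay above the 3 control arrays, as in 9.7% of all rows, but neither gene was called. Such a separation in either direction was thus seen in 6 of the 10 genes and in 20.4% of all rows. In PSMB8, PSMB10, TAP2 and NLRC5 the groups overlapped. ERAP2 was the 1 gene of the 10 whose fold change also reached 1 log2 unit, a size that 3.24% of all rows in g2_1 and 3.19% in g3_4 passed downwards.

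**Figure D1:**
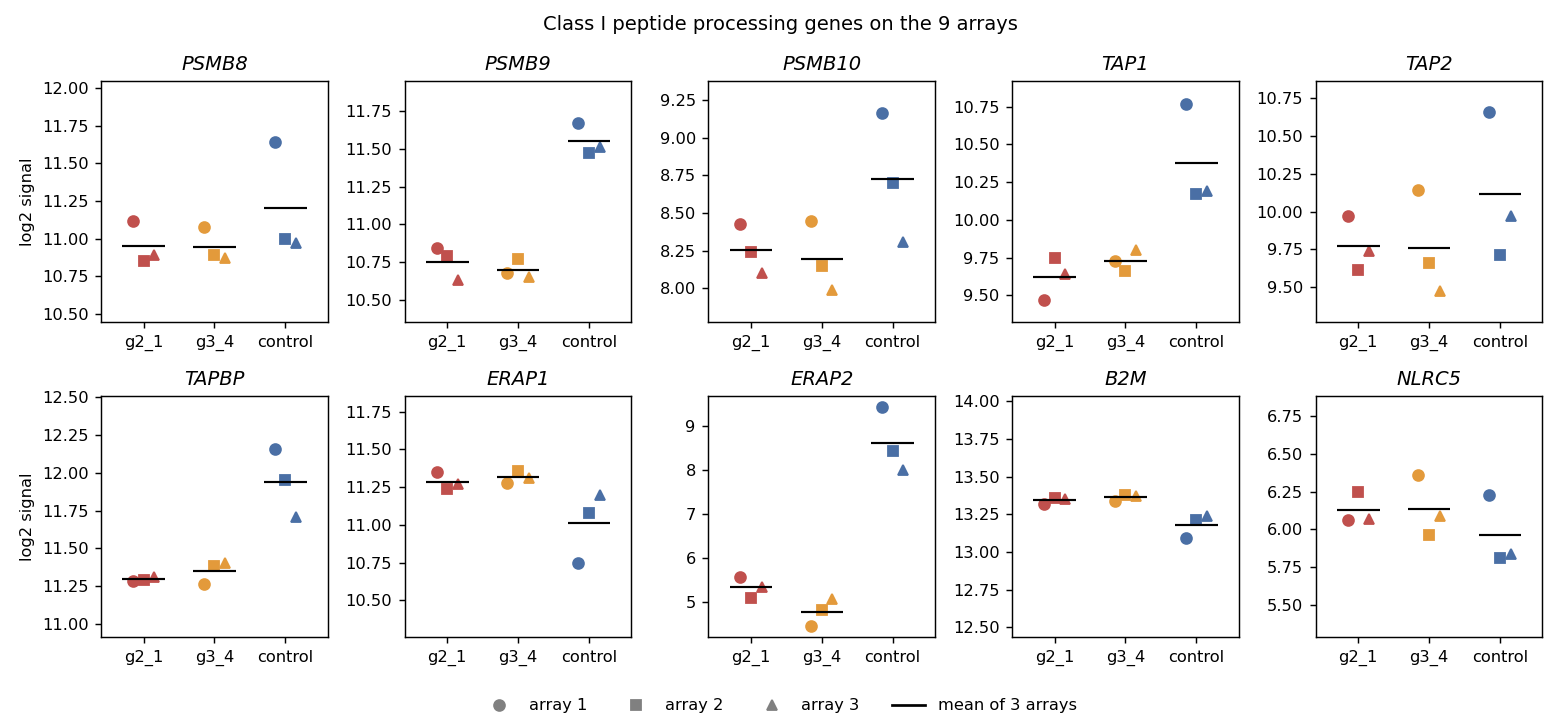
Log2 signal (y axis) of each of the 10 genes on each array, for g2_1, g3_4 and control on the x axis, with 1 symbol for each array and a bar at the mean of 3. Each panel has its own range, and the knockout symbols of PSMB9, TAP1, TAPBP and ERAP2 lie below all control symbols.

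Of the 3 inducible subunits of the proteasome, PSMB9 passed the test. PSMB9, which replaces PSMB6, had 10.84, 10.79 and 10.63 in g2_1 and 10.68, 10.77 and 10.65 in g3_4, against 11.67, 11.47 and 11.51 in the control. The control arrays stand clear of all knockout arrays, and the spread within each group is small beside the gap. PSMB9 fell by 0.80 (SE 0.100) on the log2 scale in g2_1, with an adjusted p of 0.000333 in limma, and by 0.85 (SE 0.100) in g3_4, with an adjusted p of 0.00022. That is 1.74-fold lower in g2_1 and 1.80-fold lower in g3_4 than in the control.

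PSMB8, which replaces PSMB5, had 11.12, 10.85 and 10.89 in g2_1 and 11.08, 10.89 and 10.87 in g3_4, against 11.64, 11.00 and 10.97 in the control. Control array 1 stands alone, and the other 2 control arrays lie within the range of the knockout arrays. The averaged log2 fold change was -0.25, with a 95% interval from -0.58 to 0.07 and an adjusted p of 0.302 in limma, and without control array 1 it was -0.035. The test did not call PSMB8, and its interval does not exclude a decrease.

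PSMB10, which replaces PSMB7, had 8.43, 8.24 and 8.10 in g2_1 and 8.45, 8.15 and 7.99 in g3_4, against 9.16, 8.70 and 8.31 in the control. Array 1 is the highest of its group in all 3 groups, and control array 3 lies within the knockout range. PSMB10 differed by -0.50 (SE 0.172) on average, with an adjusted p of 0.0741 in limma. Leaving out control array 3 brought the value to -0.70 and the call in both clones (adjusted p of 0.0334 in g2_1 and 0.0229 in g3_4 in limma), and leaving out control array 1 brought it to -0.28.

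Of the 3 constitutive catalytic subunits PSMB7 passed. It fell in both clones, by 0.83 on average (SE 0.165, adjusted p of 0.00512 in limma), with 10.28, 10.26 and 9.97 in g2_1 and 10.32, 10.19 and 10.12 in g3_4, against 11.53, 10.74 and 10.78 in the control. Its call in g2_1 was lost without array 3 of that clone (adjusted p of 0.0581 in limma), and that in g3_4 without its array 2 or 3 (0.0571 and 0.0622). PSMB5 differed by -0.24 and PSMB6 by 0.42, neither of them called, and without control array 1 PSMB6 was called higher in both clones (0.65 in g2_1 and 0.72 in g3_4).

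The counts in the rest of the proteasome, which serves all protein turnover, stand beside 6.97% of all rows that fell and 4.48% that rose in both clones. Among 11 subunits of the 20S core PSMA4 fell by 0.81 on average (SE 0.085), with 10.02 to 10.37 on knockout arrays against 10.96 to 11.07 on control arrays, and PSMB3 differed by 0.40, called for the average (adjusted p of 0.0324 in limma) but in neither clone. Without control array 1, or after centring each array on its median, PSMB3 was called higher in both clones. Of 14 measured subunits of the 19S regulatory particle 1 rose, PSMD14, a deubiquitinase, by 0.41, and leaving out any of 6 of the 9 arrays ended its call. Without control array 1, the 19S count was 3 risen. Of 8 activators and assembly factors 1 fell, PSMG3, an assembly chaperone, by 0.46, also lost without any 1 of 6 arrays, and PSME1, a subunit of the interferon-inducible activator PA28, had 0.05.

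The transporter and its adaptor gave 2 calls in 3 genes, both lower, where 6.97% of all rows fell in both clones. TAP1 had 9.47, 9.75 and 9.64 in g2_1 and 9.73, 9.66 and 9.80 in g3_4, against 10.77, 10.17 and 10.19 in the control. All 6 knockout arrays lie below the lowest control array, and control array 1 lies far above the other 2. TAP1 fell by 0.76 (SE 0.156) in g2_1, with an adjusted p of 0.00775 in limma, and by 0.65 in g3_4, with an adjusted p of 0.0174. Leaving out array 1 or array 2 of g3_4 ended the call in that clone (adjusted p of 0.0549 and 0.0691 in limma), and 3 of the 10 genes then fell in both clones.

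TAP2, the partner of TAP1 in the transporter, had 9.97, 9.61 and 9.74 in g2_1 and 10.14, 9.66 and 9.47 in g3_4, against 10.66, 9.71 and 9.97 in the control. The groups overlap, and in each group the array with the highest value is array 1. TAP2 differed by -0.35 on average, with a 95% interval from -0.80 to 0.10 and an adjusted p of 0.308 in limma, and by -0.075 without control array 1.

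TAPBP, which holds empty class I molecules at the transporter, had 11.28, 11.29 and 11.31 in g2_1 and 11.26, 11.38 and 11.40 in g3_4, against 12.16, 11.95 and 11.71 in the control. The knockout arrays are close together while the control arrays spread more widely, with no overlap. TAPBP fell by 0.65 (SE 0.117) in g2_1, with an adjusted p of 0.00367 in limma, and by 0.59 (SE 0.117) in g3_4, with an adjusted p of 0.0061. Its call held in both clones when any 1 of the 9 arrays was left out.

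Among 6 other chaperones of peptide loading 1 passed in both clones, where 6.97% of all rows fell and 4.48% rose. HSPA5, a general chaperone of the endoplasmic reticulum also known as BiP, fell by 0.67 on average, and leaving out any of 7 of the 9 arrays, or centring the arrays, ended that call. CALR, which binds class I molecules once they carry B2M, had 0.03, and P4HB, a disulphide isomerase, had 0.26 and was called for the average of both clones (adjusted p of 0.0368 in limma) but in neither clone.

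Of the trimming enzymes ERAP2 fell more than any other of the 10 genes, and ERAP1 was not called. ERAP2 had 5.56, 5.09 and 5.35 in g2_1 and 4.45, 4.81 and 5.06 in g3_4, against 9.44, 8.43 and 8.01 in the control. The groups are far apart, and the arrays of g3_4 lie below those of g2_1. ERAP2 fell by 3.29 (SE 0.305) in g2_1, a signal 9.80-fold lower, with an adjusted p of 3.57e-05 in limma, and by 3.85 (SE 0.305) in g3_4, 14.4-fold lower, with an adjusted p of 9.49e-06. The first quartile of all tested rows lay at 4.62 to 4.66 on these arrays, so the knockout values are in the low part of the scale, where RMA compresses differences, and without detection flags it cannot be said whether transcript remained. In RNA of whole cultures, fewer cells with a transcript and less transcript in each cell cannot be told apart. Without control array 1, the array with the highest ERAP2 value, the averaged change was -3.17.

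ERAP1 is read in the opposite direction to ERAP2, and its RefSeq span takes in that of ERAP2. ERAP1 had 11.35, 11.24 and 11.27 in g2_1 and 11.28, 11.36 and 11.31 in g3_4, against 10.75, 11.08 and 11.20 in the control. Every knockout array is above every control array, narrowly so for control array 3. The averaged difference was 0.29 (SE 0.103), with an adjusted p of 0.0788 in limma, and 0.16 without control array 1. Without control array 3 it was 0.39 with an adjusted p of 0.0344 in limma, a call for the average of both clones. Of 9 other aminopeptidases and peptidases 0 were called in either clone by limma (1 in g3_4 at an unadjusted p under 0.05), TPP2 having 0.23 and NPEPPS 0.07.

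B2M, the light chain of every class I molecule, had 13.32, 13.36 and 13.35 in g2_1 and 13.34, 13.38 and 13.37 in g3_4, against 13.09, 13.21 and 13.24 in the control. The 6 knockout values are nearly the same, and all are above the control. The averaged difference was 0.17 (SE 0.0754), with a 95% interval from 0.0068 to 0.34 and an adjusted p of 0.157 in limma. After each array was centred on its median, B2M was called higher in g3_4 and for the average, but not in g2_1. The B2M signals are near the top of the scale, where the highest value of any tested row was 13.87, and whether that limited the difference was not tested.

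The class I heavy chains, which pair with B2M, gave 0 calls in either clone in limma, in 4 genes measured, and 1 gene in g2_1 and 3 in g3_4 at an unadjusted p under 0.05. Their averaged differences ran from 0.19 to 0.38 with a median of 0.32, which was 0.15 without control array 1. HLA-E, a ligand of natural killer cell receptors, had 11.20, 11.20 and 11.18 in g2_1 and 11.49, 11.18 and 11.21 in g3_4, against 10.54, 11.03 and 11.09 in the control. HLA-C had 0.38, with an adjusted p of 0.065 in limma, and was called higher in both clones after each array was centred on its median. Control array 1 was the lowest array of its group for B2M and for HLA-E and HLA-C, the reverse of its place for TAP1, TAP2, TAPBP, PSMB8, PSMB9, PSMB10 and ERAP2. Sequences of class I genes are alike, and whether probes were shared between them was not tested.

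Of 7 genes whose products pair with B2M outside classical class I, 1 rose, where 4.48% of all rows rose in both clones. HFE, the B2M-bound regulator of iron uptake, rose by 0.82 (SE 0.144), with 7.16, 6.92 and 7.22 in g2_1 and 6.95, 6.88 and 7.30 in g3_4, against 6.13, 6.02 and 6.59 in the control. MR1, which shows bacterial metabolites to T cells, had -0.21. Of the 6 stress ligands that natural killer cells read, 0 were called in either clone by limma (1 in g2_1 at an unadjusted p under 0.05), and MICA had -0.13.

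NLRC5, the class I transactivator, had 6.06, 6.25 and 6.07 in g2_1 and 6.36, 5.96 and 6.09 in g3_4, against 6.23, 5.81 and 5.84 in the control. The 3 groups overlap around the array median. It differed by 0.17 in g2_1 (adjusted p of 0.546 in limma) and by 0.18 in g3_4 (adjusted p of 0.507), and the 95% interval of the average ran from -0.10 to 0.44. Of 8 measured genes of the factor complex that binds class I and class II promoters, NFYA fell by 0.64 on average, lost without any 1 of 2 arrays, and 0 rose. In both clones 6.97% of all rows fell and 4.48% rose. CIITA, the class II transactivator, had -0.73 in g2_1 and 0.02 in g3_4, and RFX5 had 0.06. RFXAP, named after its values were seen, was not called in both clones with all 9 arrays. It was called lower in both without the arrays numbered 1 (-0.64 on average) and with the array number as a block (-0.57).

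Among 12 measured receptors, kinases and factors of interferon and NF-kB signalling 4 fell and 0 rose in both clones in limma, and at an unadjusted p under 0.05 in both clones 4 were lower and 4 higher. Over all rows 6.97% fell and 4.48% rose at an adjusted p under 0.05. Those shares stand beside the 4 fallen and 0 risen only, since the shares at an unadjusted p were not computed. Both without control array 3 and after centring each array on its median, the count was 3 fallen and 2 risen, and the 2 that rose after centring were IFNAR2, an interferon receptor chain, and JAK1. JAK2, a kinase of the interferon gamma receptor, had 5.90, 6.13 and 6.25 in g2_1 and 5.62, 6.44 and 6.37 in g3_4, against 8.82, 8.76 and 8.88 in the control. IRF1, the interferon-induced factor known to act on the shared TAP1 and PSMB9 promoter, had 8.11, 7.88 and 8.16 in g2_1 and 8.50, 8.20 and 8.55 in g3_4, against 9.12, 9.06 and 8.87 in the control. No knockout array of either gene reaches the lowest control array. IRF1 fell by 0.97 in g2_1 and by 0.60 in g3_4, and NFKB1, which encodes the p50 subunit of NF-kB, fell by 0.92 on average. IRF9, named after its value was seen as the last of the 4, fell by 0.51, and leaving out any of 4 arrays, or the arrays numbered 1, or centring, ended its call in at least 1 clone. RELA, the p65 subunit, with an averaged difference of 0.42, and JAK1, with 0.37, were among 3 genes called higher in g3_4 and were not called in g2_1.

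**Figure D2:**
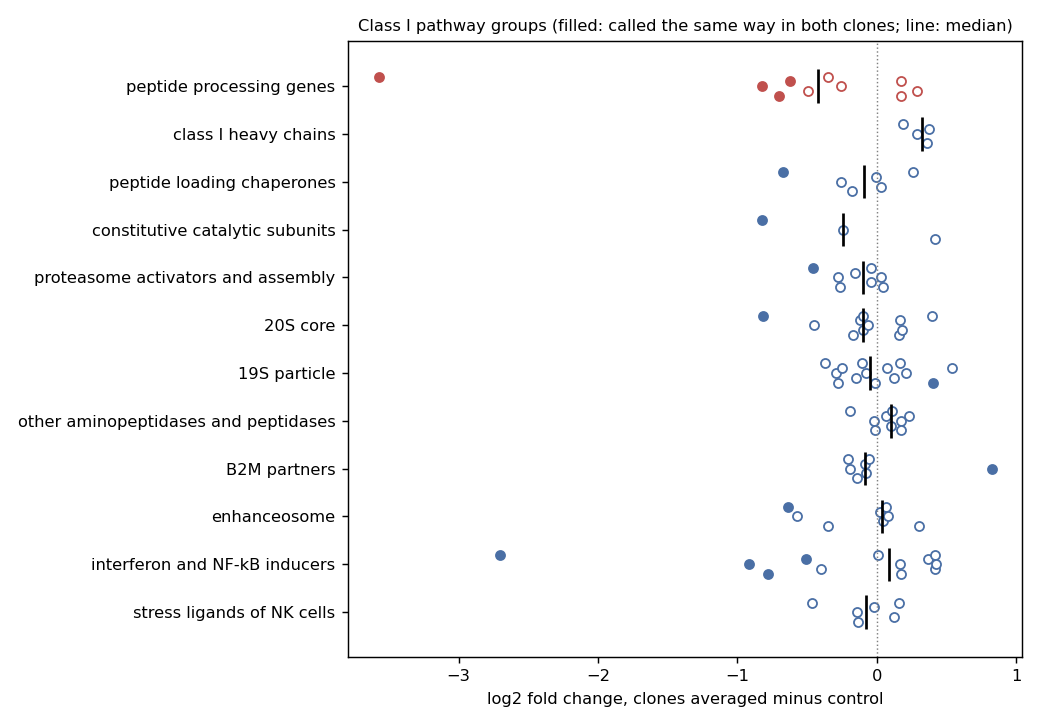
Log2 fold change, both clones averaged minus control (x axis), of every measured gene in the peptide processing group, drawn at the top, and in 11 related lists, with filled points for genes called the same way in both clones and a bar at each list's median. The peptide processing genes have 4 filled points, ERAP2 far to the left at -3.57, and the inducers have 4, led by JAK2 at -2.70.

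Over all 11 related lists 88 of 99 genes were measured, of which 9 fell and 2 rose in both clones, beside 6.97% and 4.48% of all rows. Their median was -0.02, against -0.42 for the 10 peptide processing genes and 0.035 for all tested rows. Centring each array on its own median raised the median of all rows by 0.112, to 0.147, and turned the medians of 6 of the 11 lists from below 0 to above it. The median of the 10 genes was then -0.31, the same 4 genes fell, and ERAP1 rose in both clones (adjusted p of 0.0457 in g2_1 and 0.036 in g3_4 in limma). B2M was then called higher in g3_4 (adjusted p of 0.0427 in limma) and for the average (0.0212), but not in g2_1 (0.052). Of the rows called for the average, 54.7% were lower on the deposited scale and 31.5% after centring. None of the 10 genes changed sign against control in either clone by centring.

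Between the clones 0 of the 10 genes were called, where 0.0526% of all rows were, every adjusted p was 0.997 in limma and 0 had an unadjusted p under 0.05. ERAP2 had the widest gap, 0.56 higher in g2_1 than in g3_4, with a 95% interval from -0.11 to 1.23. For the other 9 genes the difference lay between -0.11 (TAP1) and 0.06 (PSMB10). Their intervals leave room for differences of some size, from -0.51 to 0.54 in TAP2 and from -0.17 to 0.28 in PSMB9. The array number pairs the 2 clones, and with that number as a block 27 rows in place of 11 were called, with none of the 10 genes among them.

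**Figure D3:**
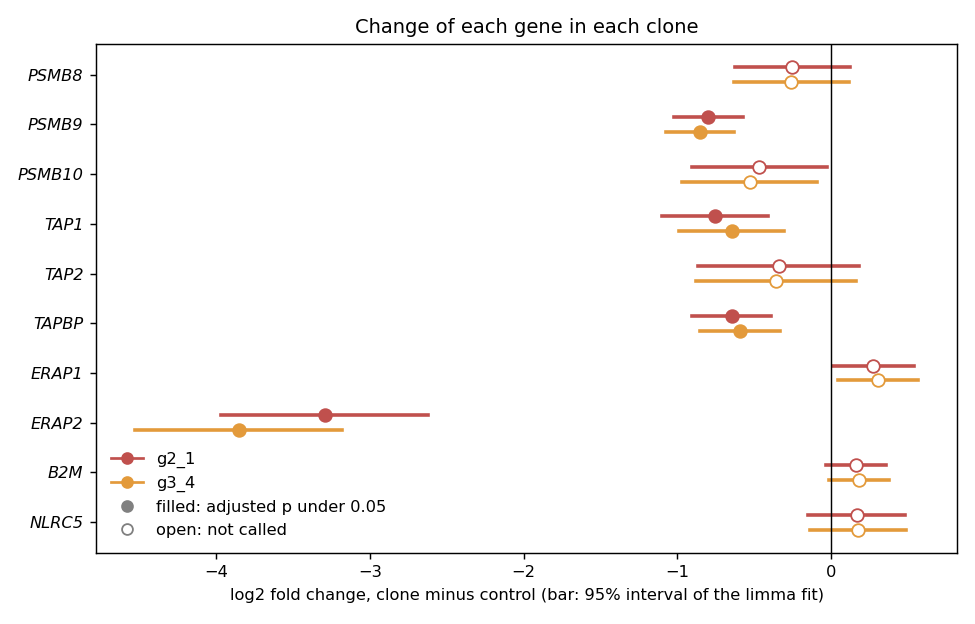
Log2 fold change of each of the 10 genes against control (x axis) in g2_1 and in g3_4, with bars for the 95% interval of the limma fit and filled points at an adjusted p under 0.05. The points of the 2 clones lie close to each other for each gene, with ERAP2 at -3.29 and -3.85.

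Control array 1 set the size of several values. It carried the highest RNA integrity number of its group, 10 against 9.5, as did array 1 of both clones, and it was the highest control array for 8 of the 10 genes and the lowest for B2M and ERAP1. Without it the median of the 10 genes was -0.18, while the same 4 genes fell, TAP1 by 0.51, TAPBP by 0.51, PSMB9 by 0.76 and ERAP2 by 3.17 on average. Within array numbers 1, 2 and 3, the mean of the clones minus the control was -1.17, -0.46 and -0.47 for TAP1, -0.91, -0.69 and -0.87 for PSMB9 and -4.43, -3.48 and -2.81 for ERAP2. TAPBP had -0.89, -0.61 and -0.35. The sign was the same within every number for 9 of the 10 genes, the exception being NLRC5. The part of RNA quality in these differences was not tested.

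**Figure D4:**
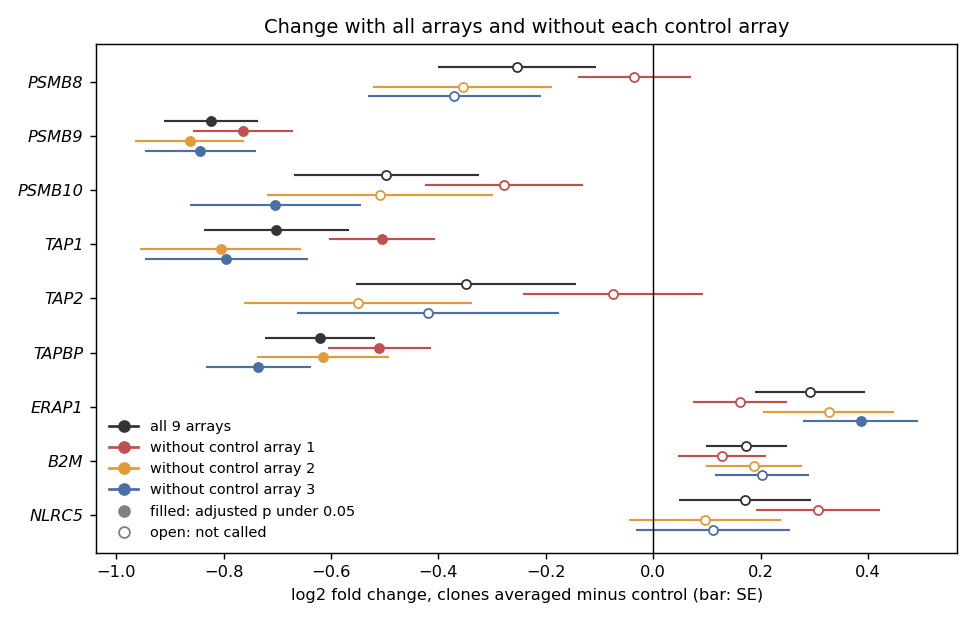
Log2 fold change, both clones averaged minus control (x axis), of 9 genes with all 9 arrays and without each control array in turn, with bars for the SE and filled points at an adjusted p under 0.05. ERAP2 is left off for scale, and TAP2 and PSMB8 come close to 0 without control array 1.

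Up to 5 named genes on each side of each locus, in RefSeq order, were set beside the 10 genes. Genes without a named row were passed over. The counts of neighbours here and below stand beside 6.97% of all rows that fell and 4.48% that rose in both clones. The nearest named row past ERAP2 was LIX1, which had 0.14 and was not called. On the other side, past ERAP1, it was CAST, a calpain inhibitor. CAST had 0.63 in g3_4, which was called, and 0.49 in g2_1, which was not. Farther out, 3 of 10 neighbours of the locus fell, RHOBTB3 by 0.84, CHD1 by 0.70 and FAM174A by 0.90, all chosen after their values were seen, as are the other neighbours below that do not adjoin ERAP2, TAP1 or NLRC5. The ERAP2 change of -3.57 is larger than any of them.

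TAP2, PSMB8, TAP1 and PSMB9 lie in a row within the class II region. Of 11 neighbours there HLA-DOB, a chain of a class II peptide exchange inhibitor, fell by 0.78 and its partner HLA-DOA rose by 0.49, the first call lost without any 1 of 2 arrays and the other without any 1 of 6, and the median of the 11 was -0.33. HLA-DQA1, a class II chain, had -1.53 in g2_1, which was called, and -0.72 in g3_4, which was not. In all, 6 of the 11 neighbours were called lower in g2_1, where 8.06% of all rows were. Of these HLA-DOB was called lower in g3_4 too, where 8.16% of all rows were. None of the 11 was called between the clones in limma, where 0.0526% of all rows were. At an unadjusted p under 0.05 in limma 7 of the 11 differed between the clones, each lower in g2_1 than in g3_4. The 0.0526% does not apply to that count, and the share of all rows at an unadjusted p was not computed. PSMB8-AS1 is an RNA from the other strand, and its span overlaps those of PSMB8 and TAP1. It had 9.27, 9.10 and 9.02 in g2_1 and 9.62, 9.15 and 9.07 in g3_4, against 8.29, 8.96 and 8.72 in the control. Its difference of 0.55 was called in g3_4 and for the average, and its sign is opposite to that of TAP1. PSMB9, the neighbour of TAP1 on the other side, fell as TAP1 did.

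Around TAPBP 2 of 10 neighbours fell, VPS52 by 0.76 and SLC39A7 by 0.62 (lost without any 1 of 5 arrays), and around PSMB10 0 of 10 were called in both clones by limma, nor at an unadjusted p under 0.05. Next to B2M, PATL2 fell by 3.34, with 5.17, 4.83 and 4.90 in g2_1 and 4.70, 5.01 and 4.86 in g3_4, against 7.51, 8.68 and 8.56 in the control, while B2M had 0.17. Beside NLRC5, CETP had 0.08 and was not called. CPNE2 on the other side had 0.38 and was called for the average and in g2_1 (0.52), but not in g3_4 (0.24). Of the 10 neighbours of NLRC5, MT1X, a metallothionein, rose by 0.80 (lost without any 1 of 4 arrays).

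**Figure D5:**
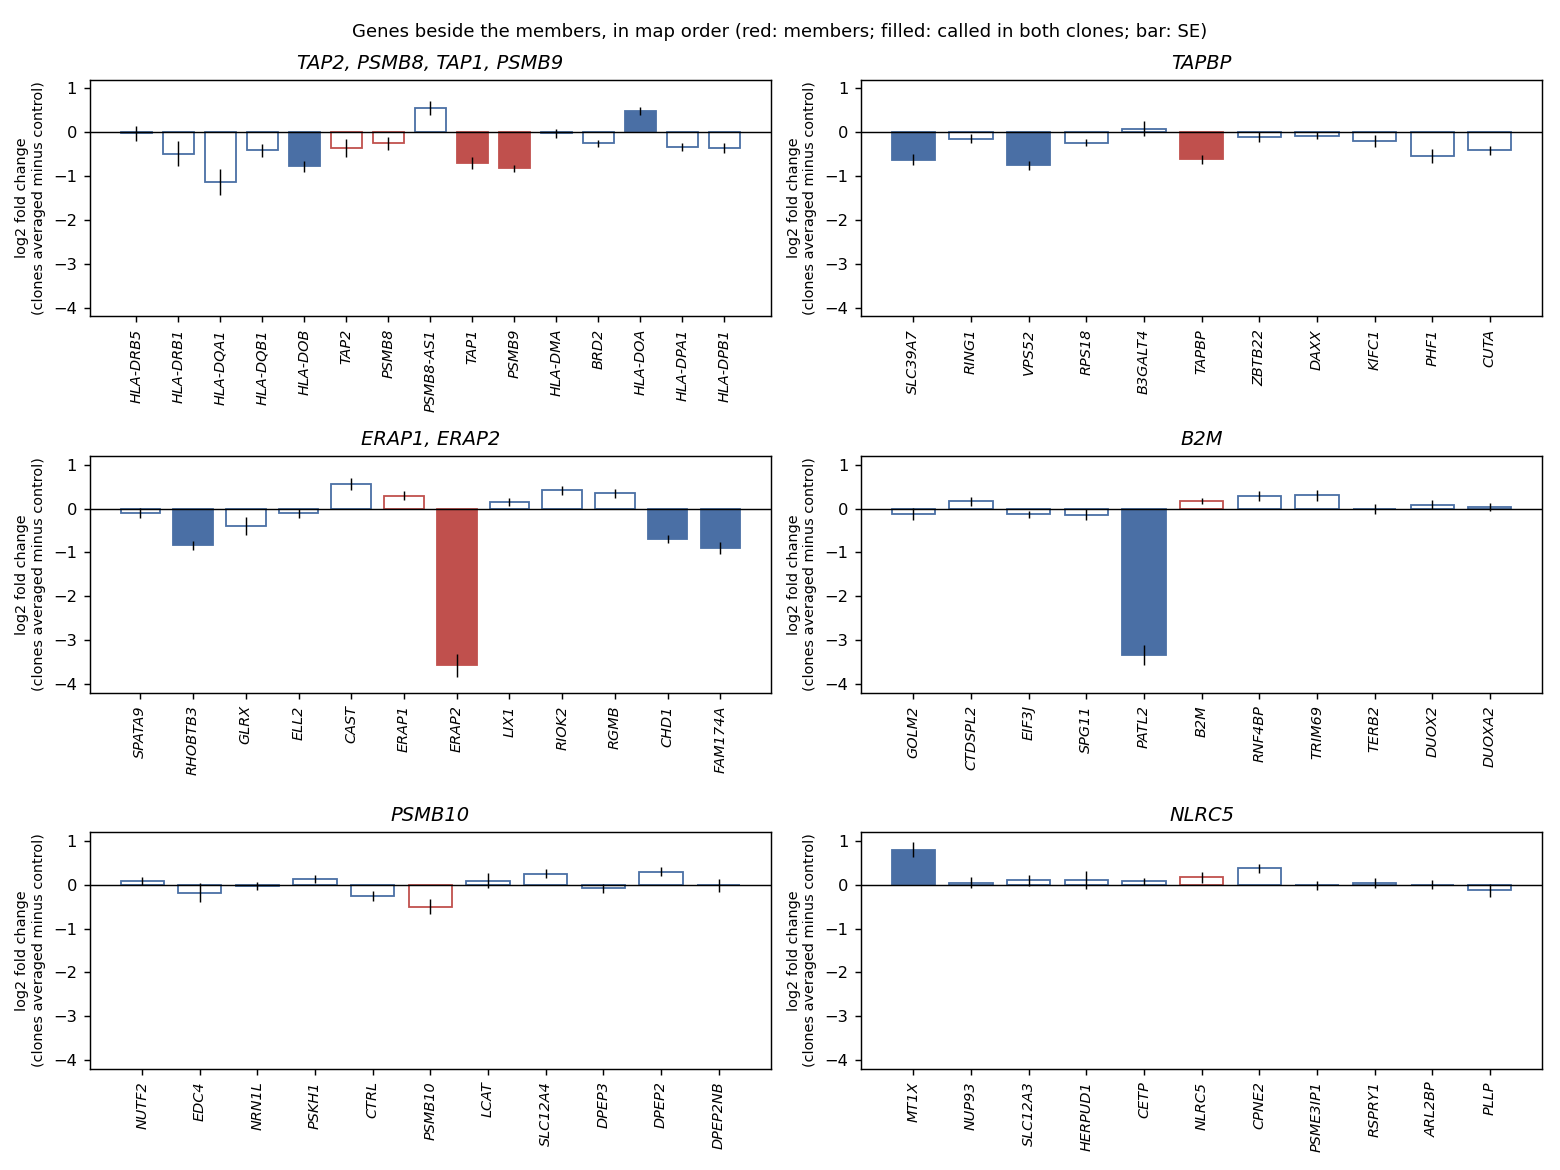
Log2 fold change, both clones averaged minus control (y axis), of the 10 genes in red and their named neighbours in blue, in map order, with 1 panel for each locus, filled bars for genes called in both clones and lines for the SE. ERAP2 and PATL2, at -3.57 and -3.34, stand out from genes beside them.

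The named rows with a pattern most like that of ERAP2, by Euclidean distance over the 9 arrays of values minus their own control mean, were KITLG (0.777), UGT2B15 (0.787) and CYP4Z1 (0.817). KITLG, the ligand of the receptor KIT, had 4.34, 4.32 and 4.25 in g2_1 and 3.92, 3.96 and 4.17 in g3_4, against 8.50, 7.08 and 7.09 in the control. Control array 1 was the highest in KITLG and in ERAP2, a likeness that the distance itself favours because it includes the control arrays. Nearest to NLRC5 were GOLGA3 (0.200), OSBPL10 (0.219) and CPLX2 (0.220), none of them called.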

How the data were processed

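Values were deposited as log2 signals of transcript clusters on Clariom S arrays, which the authors made with RMA and Transcriptome Analysis Console 4.0, according to the submitters' processing notes. RMA corrects background, makes the arrays' distributions alike and summarises probes. It can thereby mask a shift shared by most genes and compress differences at low signal. The array's genome build is not given in the sources used here. Per the labels' protocols 250 ng of RNA was labelled for each array. No detection flags came with the values, so signal over background is unknown, and the number of arrays sets the precision.

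The 555 rows with unmapped IDs were left out and 20893 were tested, of which 3188 had no gene symbol. All 17705 named rows matched the RefSeq table of GRCh38.p14 by gene ID, which was used for names and gene order only. The test was limma's moderated one (version 3.58.1, R 4.3.3, two-sided), on 9 arrays with a term for each group and no block, with Benjamini-Hochberg adjustment over 20893 rows and calls at an adjusted p under 0.05. The fit was tested on simulated data. No 2 arrays held the same values. Same-numbered arrays of the clones shared their deviations (correlations of deviations from the group means 0.435, 0.191 and 0.31), so the number pairs them, but not with the control in every number (0.285, 0.0426 and 0.183 for g2_1, 0.298, 0.0565 and 0.257 for g3_4).

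The 10 genes, the 11 pathway lists and the 5 marker lists were chosen with earlier results of these data known. Named were LTA, the 10 genes, up to 3 called members of each list with the largest averaged change and up to 2 others, the neighbours adjoining ERAP2, TAP1 and NLRC5, and the 3 rows nearest in pattern to ERAP2 and to NLRC5. Markers, other neighbours, IRF9 and RFXAP were named after their values were seen. Genes of the lists without a named row were not analysed here. Alternatives left out each array, the arrays numbered 1, changed centring, weights, variance model, samples fitted and the limit on fold change, or added the array number as a block.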

Additional observations from a re-analysis of the deposited data

How the results depend on the processing

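The calls of ERAP2, PSMB9 and TAPBP in both clones held without any 1 of the 9 arrays, and that of TAP1 held except in g3_4 without its array 1 or 2. Over 18 alternatives, 9 of which leave out 1 array, 781 values of LTA and the 10 genes were recomputed: 755 kept their side of the threshold, 11 lost the call and 15 gained it. Of the 755, 14 turned sign, all of them uncalled differences between the clones, and 0 called values turned sign. Requiring a log2 fold change of at least 1 left 875 rows in g2_1, 886 in g3_4 and 873 for the average, with 1 of the 10 genes, ERAP2, in each. The count between the clones, 11, was 32 in a fit of the 2 clones only, 50 with array weights, 27 with the replicate block and 29 without arrays numbered 1, and ran from 4 to 45 when 1 array was left out. The cause was not tested. With the replicate block PSMB10 was also called lower, with an adjusted p of 0.0185 in g2_1 and 0.0105 in g3_4 in limma; the block changed no other call among the 10 genes. A variance trend with a robust fit called B2M in g3_4 (adjusted p of 0.0414 in limma), and B2M (0.0225) and ERAP1 (0.0454) for the average. Each of the 10 genes has 1 row, so another choice of row could not be run, and a fit of the compared groups only is the main one for the average.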
